A study of Homo sapiens with 21 samples.

Results

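Genes that encode proteins of the neutrophil granules, 10 in all, were described across 21 poly(A) RNA libraries of OCI-AML5, a human acute myeloid leukemia cell line. They are MPO, ELANE, PRTN3, AZU1, CTSG, LYZ, TCN1, LTF, LCN2 and MMP9, out of 58174 gene identifiers in the files. They were taken by symbol, and TCN1 and MPO were chosen by values of these same libraries, TCN1 for its strong rise under UM171 and MPO for its lower response in sgEPCR cells. Those values are therefore given below as descriptions without a test, whereas the other members and the remaining comparisons of TCN1 and MPO were tested. Only 5 of the 10 members, MPO, AZU1, CTSG, LYZ and TCN1, passed the filter on low counts, so the set is a neutrophil granule set by name only in part in these cells.

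Neutrophil granules are filled in sequence while a myeloid progenitor matures. The azurophil (primary) granules, formed at the promyelocyte stage, hold myeloperoxidase (MPO) and the serine protease family of neutrophil elastase (ELANE), proteinase 3 (PRTN3), cathepsin G (CTSG) and the proteolytically inactive azurocidin (AZU1). The specific (secondary) granules, formed at the myelocyte stage, hold the iron binder lactoferrin (LTF), the siderophore binder lipocalin 2 (LCN2) and transcobalamin 1 (TCN1, also called haptocorrin), which binds vitamin B12. Gelatinase granules come last and carry matrix metalloproteinase 9 (MMP9). Lysozyme (LYZ), which cleaves bacterial cell walls, is stored in all of these granule types and is also a major product of monocytes. Transcription factors of the C/EBP family, PU.1 (encoded by SPI1), RUNX1 and GFI1 are known regulators of these genes.

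UM171 is a small molecule used to expand human hematopoietic stem cells in culture, and DMSO is its vehicle. Control cells were labelled OCI-AML5 without a genotype and comprised DMSO and UM171 for 6, 24, 48 and 72 h, whereas sgEPCR cells carried a guide RNA against the endothelial protein C receptor (EPCR, gene PROCR) and were kept in DMSO or in UM171 for 24 h. Each of the 7 groups held 3 libraries, and nothing in the labels says that the 3 came from separate cultures. The labels give UM171 as 500 nM (the text of the study gives a lower dose), call the sgEPCR cells a clone, EPCR null and EPCR knockdown, and give 72 h for the DMSO libraries of control cells and 24 h for those of sgEPCR cells. A single DMSO group therefore served all 4 times, and genotype cannot be told apart from the hours in DMSO when both DMSO groups are compared. The difference of the 24 h responses uses both DMSO groups and carries the same limit. The 24 h response of control cells sets 24 h of UM171 against 72 h of DMSO. The text of the study names a guide against the AAVS1 locus for control cells and several sgEPCR clones, but which clone gave which library is not given in the sources used here.

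The regions upstream of TCN1, CTSG and AZU1 are shown because these 3 are the tested members for which the promoter table held a sequence. Each is the 250 bases before the RefSeq transcription start in GRCh38.p14, written 5′ to 3′ on the strand of the gene. Capitals mark matches on either strand to TTGCNNAA (C/EBP), GAGGAA (PU.1), TGTGGT (RUNX), TGANTCA (AP-1) or AAATCA (GFI1).
TCN1, chr11:59866488-59866737, minus strand: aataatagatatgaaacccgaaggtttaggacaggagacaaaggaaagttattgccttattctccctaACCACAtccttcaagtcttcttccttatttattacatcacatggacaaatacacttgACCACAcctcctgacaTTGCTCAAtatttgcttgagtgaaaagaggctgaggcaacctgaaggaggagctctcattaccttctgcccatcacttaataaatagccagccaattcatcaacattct
CTSG, chr14:24576251-24576500, minus strand: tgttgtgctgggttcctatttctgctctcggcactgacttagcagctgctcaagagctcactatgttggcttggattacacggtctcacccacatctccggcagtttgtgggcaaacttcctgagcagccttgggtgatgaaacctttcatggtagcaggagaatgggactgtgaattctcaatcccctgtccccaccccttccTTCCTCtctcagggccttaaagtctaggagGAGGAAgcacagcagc
AZU1, chr19:827587-827836, plus strand: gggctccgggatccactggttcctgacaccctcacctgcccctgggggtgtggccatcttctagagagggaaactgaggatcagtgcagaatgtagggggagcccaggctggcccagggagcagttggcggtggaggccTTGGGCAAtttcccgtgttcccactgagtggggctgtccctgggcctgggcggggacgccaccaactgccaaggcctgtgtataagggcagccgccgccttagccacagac

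TCN1 carried 1 C/EBP match, beginning 109 bases before the start, and 2 RUNX matches, beginning 182 and 125 bases before it. CTSG carried 2 PU.1 matches, beginning 46 and 16 bases before the start, and AZU1 carried 1 C/EBP match, beginning 111 bases before it. None of the 3 windows held an AP-1 or a GFI1 match. Among the 35116 promoter windows of the same length, 9.1% held the C/EBP letters, 23.6% the PU.1 letters, 11.0% the RUNX letters, 6.6% the AP-1 letters and 11.6% the GFI1 letters. A match is a run of letters and no measure of binding.

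On the GENCODE annotation of GRCh38, AZU1 (chr19:825097-832018), PRTN3 (chr19:840999-848175) and ELANE (chr19:851014-856247) lie in a row on the plus strand of chromosome 19, with 8980 bases between AZU1 and PRTN3 and 2838 bases between PRTN3 and ELANE. The annotated start of AZU1 lies upstream of the RefSeq start used for its promoter window. MPO lies on chr17:58269855-58280935 with 12 exons, CTSG on chr14:24573518-24576250 with 5 exons, LYZ on chr12:69348381-69354234 with 4 exons and TCN1 on chr11:59852800-59866489 with 9 exons. The values cover all exons of each gene, untranslated regions included. RSEM's posterior standard deviation of the count was 0 in every library for 9 members and at most 0.1 for LYZ, so almost no reads were divided between a member and another gene. An annotated gene overlaps LYZ and another overlaps MMP9 on the opposite strand, and the libraries were stranded.

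Total counts ranged from 24.3 to 51.5 M (mega) per library (median 33.9 M), and the smallest signal considered, 3 counts, equals 0.0582 to 0.123 CPM (counts relative to the library total), a floor that covers counting error only. Mitochondrial genes took 7.73 to 13.5% of the counts in 19 libraries but 35.9% in replicate 1 of sgEPCR DMSO and 32.2% in replicate 2 of sgEPCR cells under UM171. These 2 libraries stand apart, so results of the members in sgEPCR cells were also computed without them. PROCR, the targeted gene, had 3.37 to 4.30 TPM (transcript abundance, corrected for length and library size) in DMSO and 48.48 to 48.50 TPM at 24 h of UM171. In sgEPCR cells it had 2.30 to 4.53 TPM in DMSO and 4.23 to 8.94 TPM in UM171, so its RNA was low in treated sgEPCR cells but present in all of them. In bulk RNA of this kind, fewer cells that express a gene and less RNA per cell cannot be told apart.

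The summed level of the 10 members was 684.3, 804.7 and 772.4 TPM in the DMSO libraries and 1881, 2080 and 2166 TPM at 72 h. LYZ made up 82.3 to 96.4% of that sum in every library. TCN1 took 0.0273 to 0.0745% of it in DMSO and 9.55 to 9.87% at 72 h, and CTSG took 4.10 to 4.25% in DMSO and 6.45 to 7.46% at 72 h.

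**Figure D1:**
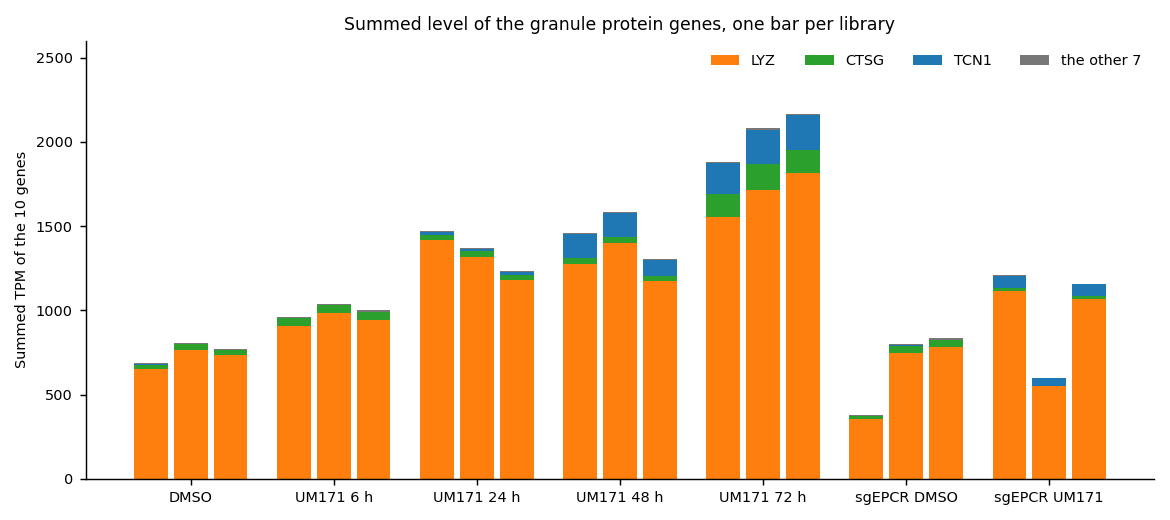
Summed TPM of the 10 granule protein genes in each of the 21 libraries (one bar per library, grouped by condition), divided into LYZ, CTSG, TCN1 and the other 7 genes. The bars grow from 684.3 to 804.7 TPM in DMSO to 1881 to 2166 TPM at 72 h, and the 2 shorter bars among the sgEPCR libraries, 377.6 and 598.5 TPM, are those with over 20% mitochondrial counts.

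The other 5 members stayed at or near the floor in all groups. LCN2 had 0 counts in all 21 libraries, which together hold 739.9 M counts and so allow at most 0.00405 CPM. LTF had 0 to 3 counts per library, 7 counts in all, and was above 0 in 4 libraries. MMP9 had 0 to 4 counts, 13 in all, in 7 libraries, of which the 3 libraries at 72 h held 2, 2 and 4. ELANE had 0 to 4 counts, 17 in all, in 9 libraries. PRTN3 had 0 to 6 counts, 58 in all, in 17 libraries, with 0 in the 3 sgEPCR UM171 libraries and 2 to 6 in the UM171 24 h libraries. LTF, LCN2, MMP9 and the 2 proteases nearest to AZU1 on the chromosome were therefore not detectable, or barely so, at this depth, and no difference between groups could be tested for them.

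**Figure D2:**
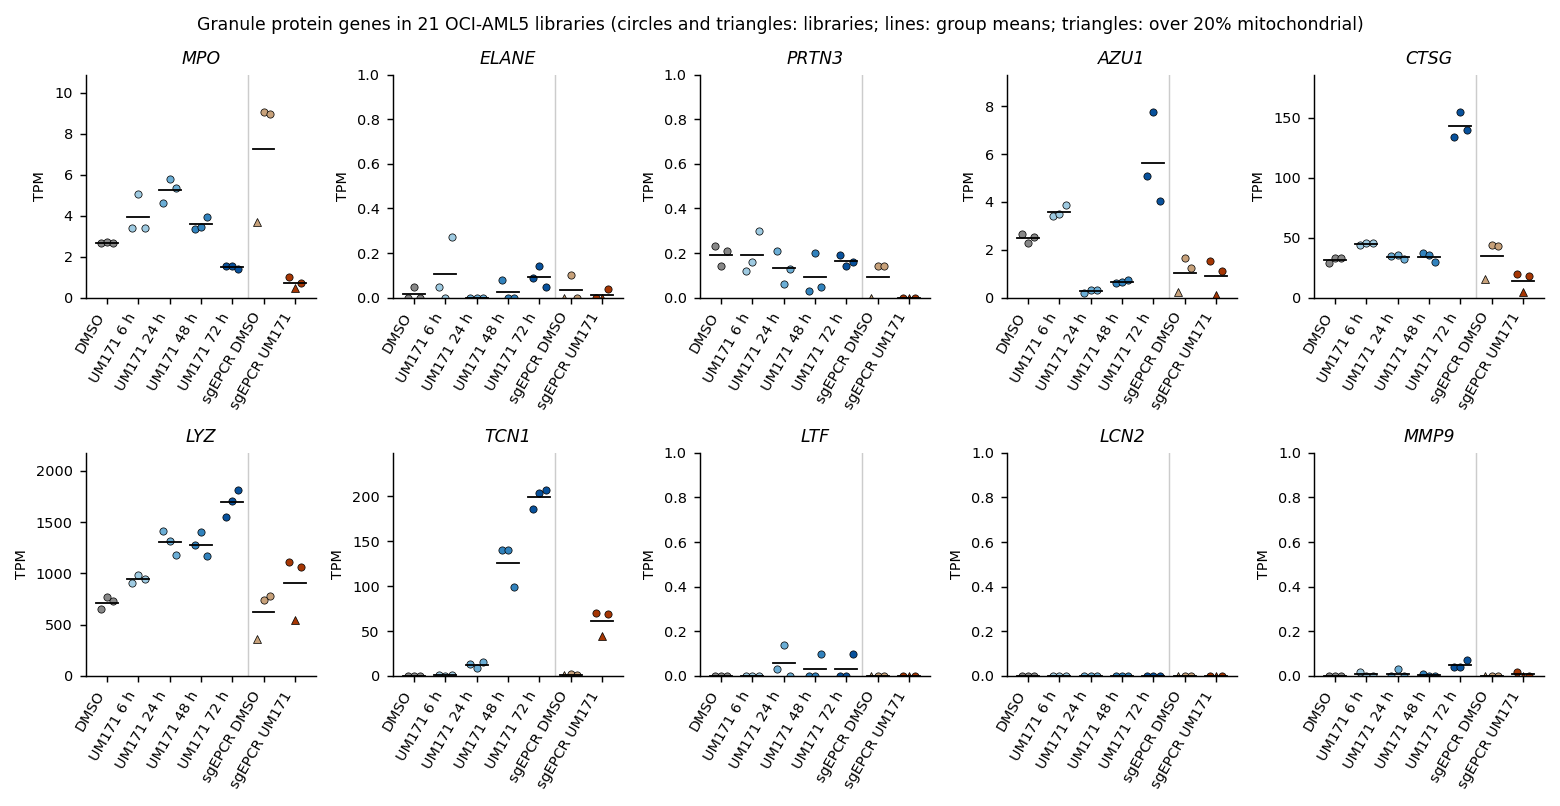
TPM of each of the 10 genes in the 21 libraries. Points are libraries, lines are group means, triangles are the 2 libraries with over 20% mitochondrial counts, the vertical axis of each panel starts at 0, and the grey line divides control from sgEPCR cells. TCN1, CTSG and LYZ reach their highest levels at 72 h, AZU1 dips at 24 and 48 h before its 72 h peak, MPO is highest in sgEPCR DMSO, and ELANE, PRTN3, LTF, LCN2 and MMP9 stay at or below 0.3 TPM.

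TCN1 was near the floor in DMSO and from 48 h on lay above CTSG and below LYZ on the TPM scale. Its level was 0.51, 0.22 and 0.30 TPM in DMSO, where it rested on 10, 3 and 4 counts. At 6 h the libraries had 1.25, 0.23 and 0.83 TPM from 23, 6 and 12 counts, a range that overlaps that of DMSO. At 24 h TCN1 had 13.29, 9.08 and 15.22 TPM, at 48 h 140.0, 140.4 and 98.5 TPM, and at 72 h 185.7, 204.1 and 207.0 TPM. From 24 h on, every library lay above every library of the earlier times, so the order of the levels was fixed except between DMSO and 6 h.

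Because TCN1 was chosen for this rise, its size is described and not tested. The fitted log2 difference from DMSO, with its standard error (SE), was 1.25 ± 0.74 after 6 h and 6.15 ± 0.33 after 24 h. It was 9.52 ± 0.25 after 48 h and 10.12 ± 0.24 after 72 h. The ratio of CPM was 72.0 at 24 h and 1200 at 72 h. Both ratios rest on only 17 counts in the 3 DMSO libraries, so their size is uncertain. Without DMSO replicate 1, which held 10 of those 17 counts, the log2 difference at 72 h was 10.83.

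In sgEPCR cells TCN1 had 0.60, 1.76 and 0.65 TPM in DMSO, from 22, 32 and 29 counts, and 69.74, 44.38 and 69.55 TPM in UM171. The sgEPCR UM171 libraries all lay above the UM171 24 h libraries of control cells and below the libraries of 48 h. The log2 response was 6.05 ± 0.31 in sgEPCR cells against 6.15 in control cells, with a difference of −0.14 ± 0.45, again as a description, and without the 2 libraries of high mitochondrial share the sgEPCR response of TCN1 was 6.15. With limma on log2(TPM + 1), which understates the change of low genes, the responses of TCN1 were 4.97 in sgEPCR and 3.31 in control cells, the difference was 1.66 and the value at 72 h was 7.22. Without DMSO replicate 1 the difference was −0.88, and without DMSO replicate 2 it was 0.13, so its sign is not fixed. The difference between genotypes within each treatment was not itself the reason TCN1 was chosen and was tested. It shares its libraries with the rise of TCN1, so these tests are not independent of that choice.

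In UM171, TCN1 was higher in sgEPCR than in control cells by 2.41 ± 0.25 on the log2 scale (edgeR's quasi-likelihood test, adjusted p = 2.8e-05). The ratio of CPM, from the pooled counts of each group, was 5.17. In DMSO the difference was 2.55 ± 0.43 (edgeR, adjusted p = 0.0011), which did not pass the limit of 0.0001, and it rests on 17 against 83 counts. Without the 2 libraries of high mitochondrial share the values were 2.37 in UM171 (edgeR, adjusted p = 2.3e-09) and 2.37 in DMSO (edgeR, adjusted p = 0.0060). The call in UM171 was kept in 7 of 12 fits that left out 1 library and in 6 of 9 other alternatives, with log2 differences between 2.20 and 2.56 in all of them, and leaving out UM171 24 h replicate 1, 2 or 3 or sgEPCR UM171 replicate 1 or 3 ended it.

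MPO was a minor transcript in these cells, far below CTSG and LYZ on the TPM scale. In control cells MPO was near AZU1 in DMSO and at 6 h but not later. It had 2.65, 2.74 and 2.67 TPM in DMSO and 4.63, 5.78 and 5.35 TPM at 24 h. At 48 h it had 3.35, 3.44 and 3.95 TPM and at 72 h 1.56, 1.54 and 1.39 TPM. The 24 h libraries lay above all DMSO libraries and the 72 h libraries below all of them.

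Against DMSO, MPO differed at 72 h by −0.96 ± 0.12 on the log2 scale (edgeR, adjusted p = 1.2e-06), which is under the 2-fold limit and so was not called. At 48 h the difference was 0.32 ± 0.11 (edgeR, adjusted p = 0.015) and at 6 h 0.06 ± 0.11 (edgeR, adjusted p = 0.63). The 6 h libraries had 3.38, 5.06 and 3.39 TPM, all above DMSO, although on the TMM scale (CPM after trimmed mean of M values normalization) they had 5.98, 5.56 and 5.75 CPM and overlapped the 5.36 to 5.72 CPM of DMSO. RSEM's effective length for MPO was 1852 bases in 6 h replicate 2 against 2973 to 3120 bases in DMSO, so TPM and counts part there. The value at 24 h, 0.89 ± 0.10, is part of the response by which MPO was chosen.

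In sgEPCR cells the direction at 24 h was the opposite. MPO had 3.69, 9.08 and 8.98 TPM in sgEPCR cells under DMSO, against 0.99, 0.48 and 0.74 TPM under UM171, and the groups did not overlap. On the TMM scale the sgEPCR DMSO libraries had 18.63, 19.74 and 20.21 CPM and the sgEPCR UM171 libraries 1.96, 1.81 and 1.49 CPM, the libraries of high mitochondrial share included. The log2 response was −3.49 ± 0.12 in sgEPCR cells, and its difference from that of control cells was −4.38 ± 0.16. In DMSO the sgEPCR cells had more MPO than control cells, by 1.8 ± 0.11, and in UM171 they had less, with a log2 difference of −2.58 ± 0.12. Without the 2 libraries of high mitochondrial share the response of MPO was −3.57 and the difference −4.45, and with limma on log2(TPM + 1) they were −2.17 and −2.93. All these values belong to the pattern for which MPO was chosen and carry no test.

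AZU1, which encodes an antimicrobial relative of the elastase family, moved in both directions over time. It had 2.68, 2.29 and 2.52 TPM in DMSO and 3.42, 3.51 and 3.87 TPM at 6 h. It had 0.20, 0.32 and 0.34 TPM at 24 h and 0.63, 0.65 and 0.73 TPM at 48 h. At 72 h it had 5.09, 7.77 and 4.04 TPM, above every other control library. None of the groups at 24, 48 and 72 h overlapped DMSO or each other.

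AZU1 fell by 2.52 ± 0.27 on the log2 scale at 24 h (edgeR, adjusted p = 2.2e-07) and by 1.39 ± 0.24 at 48 h (edgeR, adjusted p = 5.4e-05), then rose by 1.29 ± 0.19 at 72 h (edgeR, adjusted p = 8.9e-06). At 6 h the difference was 0.36 ± 0.20 (edgeR, adjusted p = 0.13). The fall at 24 h was kept in all 15 fits without 1 library and in all 8 other alternatives that tested it. The fall at 48 h was kept in 10 of 15 and 6 of 8, and leaving out DMSO replicate 1 or 3 or any of the 48 h libraries ended the call at adjusted p of at most 4.5e-04. The rise at 72 h was kept in 14 of 15 and 6 of 8, and it was 1.19 without DMSO replicate 2 (edgeR, adjusted p = 1.1e-04).

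In sgEPCR cells AZU1 had 0.22, 1.64 and 1.24 TPM in DMSO and 1.53, 0.11 and 1.10 TPM in UM171. The lowest library of each group was the one with the high mitochondrial share, at 10 and 3 counts. Its response in sgEPCR cells was −0.55 ± 0.47 (edgeR, adjusted p = 0.36), or −0.36 ± 0.25 without those libraries (edgeR, adjusted p = 0.21), and the difference from the response of control cells was 1.97 ± 0.69 (edgeR, adjusted p = 0.039). Without those 2 libraries the difference was 2.17 ± 0.35 (edgeR, adjusted p = 7.8e-05) and passed the limits, and the level in UM171 was 1.73 ± 0.28 higher in sgEPCR than in control cells (edgeR, adjusted p = 6.7e-05).

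CTSG, a chymotrypsin-like protease and the most abundant azurophil protease of the members, rose most at 72 h in control cells. It had 28.64, 32.96 and 32.81 TPM in DMSO, and 43.87, 45.42 and 45.87 TPM at 6 h. The 24 h libraries had 34.48, 35.83 and 32.37 TPM, and the 48 h libraries 37.22, 35.67 and 29.89 TPM. At 72 h it had 133.8, 155.2 and 139.8 TPM, whereas the highest library elsewhere had 45.87 TPM. CTSG rose by 2.11 ± 0.06 on the log2 scale at 72 h (edgeR, adjusted p = 3.4e-15). The differences at 6 h (0.36 ± 0.06), 24 h (0.09 ± 0.06) and 48 h (0.15 ± 0.06) were under 2-fold.

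In sgEPCR cells, read at 24 h only, CTSG was lower under UM171. It had 15.91, 44.12 and 43.13 TPM under DMSO and 19.46, 5.02 and 18.07 TPM under UM171, so the TPM ranges overlapped through the 2 libraries of high mitochondrial share. On the TMM scale, which is less moved by that share, the groups had 20.70, 25.41 and 25.55 CPM against 10.04, 4.92 and 9.27 CPM and did not overlap. CTSG fell by 1.57 ± 0.20 on the log2 scale (edgeR, adjusted p = 8.2e-05). The difference from the response of control cells was −1.66 ± 0.28 (edgeR, adjusted p = 7.5e-04), which did not pass the limit. Without the 2 libraries the response was −1.43 ± 0.07 (edgeR, adjusted p = 4.3e-10) and the difference −1.52 ± 0.09 (edgeR, adjusted p = 3.9e-09), both past the limits.

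The direction of the CTSG fall held in all alternatives, but its call was kept in only 1 of 12 fits that left out 1 library, the one without sgEPCR UM171 replicate 2, and in 5 of 10 others. The genotypes differed in CTSG by 0.49 ± 0.20 in DMSO (edgeR, adjusted p = 0.080), and by −1.17 ± 0.20 in UM171 (edgeR, adjusted p = 9.2e-04), neither of which was called. Without the 2 libraries of high mitochondrial share these CTSG differences were 0.58 (edgeR, adjusted p = 2.3e-06) and −0.94 (edgeR, adjusted p = 2.9e-08), both under 2-fold.

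LYZ, the most abundant member, had 649.6, 766.3 and 733.8 TPM in DMSO and 907.2, 984.6 and 944.3 TPM at 6 h. It had 1415, 1316 and 1180 TPM at 24 h, 1274, 1401 and 1172 TPM at 48 h and 1555, 1711 and 1814 TPM at 72 h. Each treated group lay above DMSO, 24 h and 48 h overlapped each other, and 72 h lay above both. LYZ rose by 1.19 ± 0.06 on the log2 scale at 72 h (edgeR, adjusted p = 4.7e-12). At 24 h the difference was 0.84 ± 0.06 (edgeR, adjusted p = 7.3e-10) and at 48 h 0.90 ± 0.06 (edgeR, adjusted p = 2.3e-10), both under 2-fold.

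In sgEPCR cells LYZ had 357.1, 745.8 and 783.0 TPM in DMSO and 1116, 548.5 and 1067 TPM in UM171. On the TMM scale these were 707.5, 752.8 and 812.0 CPM against 1014, 866.7 and 961.6 CPM, without overlap. The response was 0.31 ± 0.09 (edgeR, adjusted p = 0.013), and its difference from that of control cells was −0.54 ± 0.13 (edgeR, adjusted p = 0.0056), neither of them called. Without the 2 libraries the response of LYZ was 0.31 (edgeR, adjusted p = 8.3e-04) and the difference −0.53 ± 0.09 (edgeR, adjusted p = 7.7e-05), still under 2-fold and so not called.

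**Figure D3:**
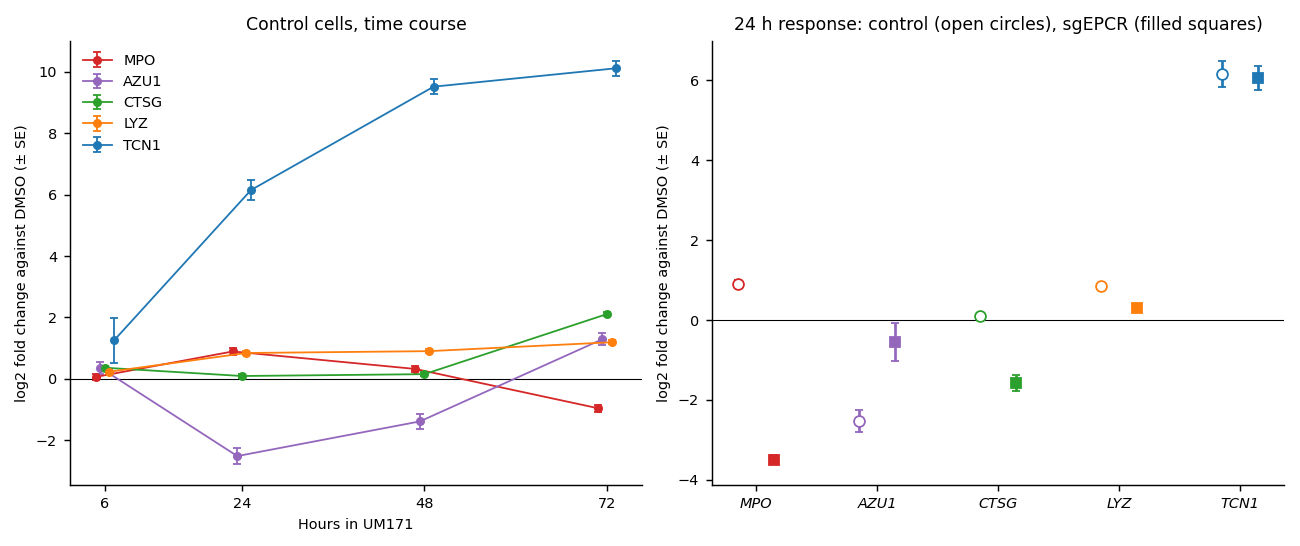
Log2 fold change against DMSO, with standard errors, of the 5 members that could be tested. Left, control cells by hours in UM171. Right, the 24 h response of control cells (open circles) and sgEPCR cells (filled squares). TCN1 reaches 10.12 at 72 h and is at 6.15 and 6.05 in control and sgEPCR cells at 24 h, whereas MPO is at 0.89 in control and −3.49 in sgEPCR cells and CTSG at 0.09 and −1.57.

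Counted over members and comparisons whose values were not used to choose them, 0 of 4 were called at 6 h, against a background of 6.78% of the 16575 tested genes called higher and 0.247% called lower. At 24 h 1 of 3, AZU1, was called lower, with 9.03% of all tested genes called higher and 4.70% lower. At 48 h 1 of 4, again AZU1, was called lower, with 11.7% higher and 4.67% lower in the background. At 72 h 3 of 4 (AZU1, CTSG and LYZ) were called higher, with 15% higher and 5.80% lower in the background, and the median log2 difference of the 4 was 1.24 against 0.02 over all tested genes.

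In sgEPCR cells 1 of 3, CTSG, was called lower after UM171, where 6.99% of 15901 tested genes were called higher and 3.33% lower. For the difference of the responses 0 of 3 were called, where 3.60% were called higher and 4.17% lower. Between genotypes 0 of 4 were called in DMSO, with a background of 1.43% higher and 1.41% lower, and 1 of 4, TCN1, was called higher in UM171, with 2.67% higher and 1.79% lower. The time comparisons share the DMSO libraries, and the sgEPCR comparisons share DMSO and UM171 24 h with them. The TCN1 call between genotypes shares its libraries with the rise by which TCN1 was chosen.

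Other granule genes were read from lists that the rule did not choose. Of the other azurophil granule genes, 5 of 8 were tested, and at 72 h 0 rose and 1 fell. The background at 72 h was 15% of all tested genes called higher and 5.80% called lower. The gene that fell was BPI, the bactericidal protein that binds bacterial endotoxin. It went from 22.15, 23.20 and 22.94 TPM in DMSO to 2.64, 2.77 and 2.74 TPM at 72 h, a log2 change of −3.12 (edgeR, adjusted p = 4.5e-16). Within control cells it was lowest at 48 h, with 1.25 to 1.27 TPM, and it fell by 2.80 in sgEPCR cells (edgeR, adjusted p = 2.0e-07). The alpha defensin genes DEFA1, DEFA3 and DEFA4 were listed at 0 TPM in every group, as group means.

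Of the other specific and gelatinase granule genes, 11 of 18 were tested, and 5 rose and 2 fell at 72 h. Over all tested genes 15% were called higher and 5.80% lower at that time. CAMP, which encodes the antimicrobial peptide cathelicidin, had 0.19, 0.54 and 0.24 TPM in DMSO and 4.94, 4.66 and 3.99 TPM at 72 h, a log2 rise of 3.73 (edgeR, adjusted p = 4.6e-09). Its DMSO level rested on 3, 8 and 4 counts, so CAMP passed the filter on low counts only through treated libraries. SLC11A1, a divalent metal transporter of phagocytes, rose by 3.09 (edgeR, adjusted p = 1.0e-09) and QPCT, a glutaminyl cyclase, by 1.92 (edgeR, adjusted p = 1.6e-08), both from under 1 TPM. The other 2 that rose, named after their values were seen, were CYBB, a subunit of the phagocyte NADPH oxidase (1.69), and SLPI, an inhibitor of elastase and cathepsin G (1.53). HP, haptoglobin, and ADAM8, a membrane metalloprotease, fell by 1.83 and 1.60 at 72 h. The median over the 11 genes was 0.43 against 0.02 over all tested genes.

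All 12 granulocyte transcription factors of the list were tested. At 72 h 1 was called higher and 2 lower, against a background of 15% higher and 5.80% lower. At 72 h CEBPB, a C/EBP factor of stress-driven granulopoiesis, rose by 1.90 (edgeR, adjusted p = 5.8e-11). SPI1 fell by 1.00 (edgeR, adjusted p = 1.5e-09) and RARA, a retinoic acid receptor, by 1.13 (edgeR, adjusted p = 4.2e-11), where the fall of SPI1 sat at the 2-fold limit and was kept in 18 of 24 alternatives. At 24 h CEBPD fell by 1.13, CEBPE, the factor of specific granule genes, by 1.18, KLF4 by 1.01 and RARA by 1.07, and none rose. Of all tested genes 9.03% were called higher and 4.70% lower at 24 h. The call of KLF4 was kept in 14 of 24 alternatives, with log2 differences of −1.08 to −0.66, and leaving out DMSO replicate 3, UM171 24 h replicate 2 or 3, or any 6 h library ended it. The log2 differences of CEBPA were −0.34 at 24 h and −0.97 at 72 h, those of GFI1 −0.25 and 0.01, those of RUNX1 −0.42 and −0.07, and those of its partner CBFB −0.16 and −0.84. MYB was at −0.56 and −0.22 and IRF8 at −0.65 and −0.76, none of them called. In sgEPCR cells at 24 h CEBPB was called higher (1.02) and CEBPD (−1.94) and IRF8 (−1.48) lower, and for the difference of the responses none of the 12 was called. The background was 6.99% higher and 3.33% lower in sgEPCR cells, and 3.60% and 4.17% for the difference. The CEBPB call was kept in only 7 of 22 alternatives, with log2 differences of 0.99 to 1.21, and leaving out any library other than DMSO replicate 1 or 3 ended it.

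Inhibitors of the granule proteases were tested for 5 of 8 genes. At 72 h 2 were called higher and 0 lower, against a background of 15% higher and 5.80% lower. SERPINA1, the plasma inhibitor of elastase, had a group mean of 4.67 TPM in DMSO and 66.9 TPM at 72 h, and it rose by 3.83 (edgeR, adjusted p = 7.1e-15). TIMP1, which inhibits metalloproteases such as MMP9, rose by 2.30 (edgeR, adjusted p = 1.4e-15), from 128 to 695 TPM. SERPINB1, which inhibits elastase, proteinase 3 and cathepsin G inside the cell, had a log2 difference of 0.35 and was not called.

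**Figure D4:**
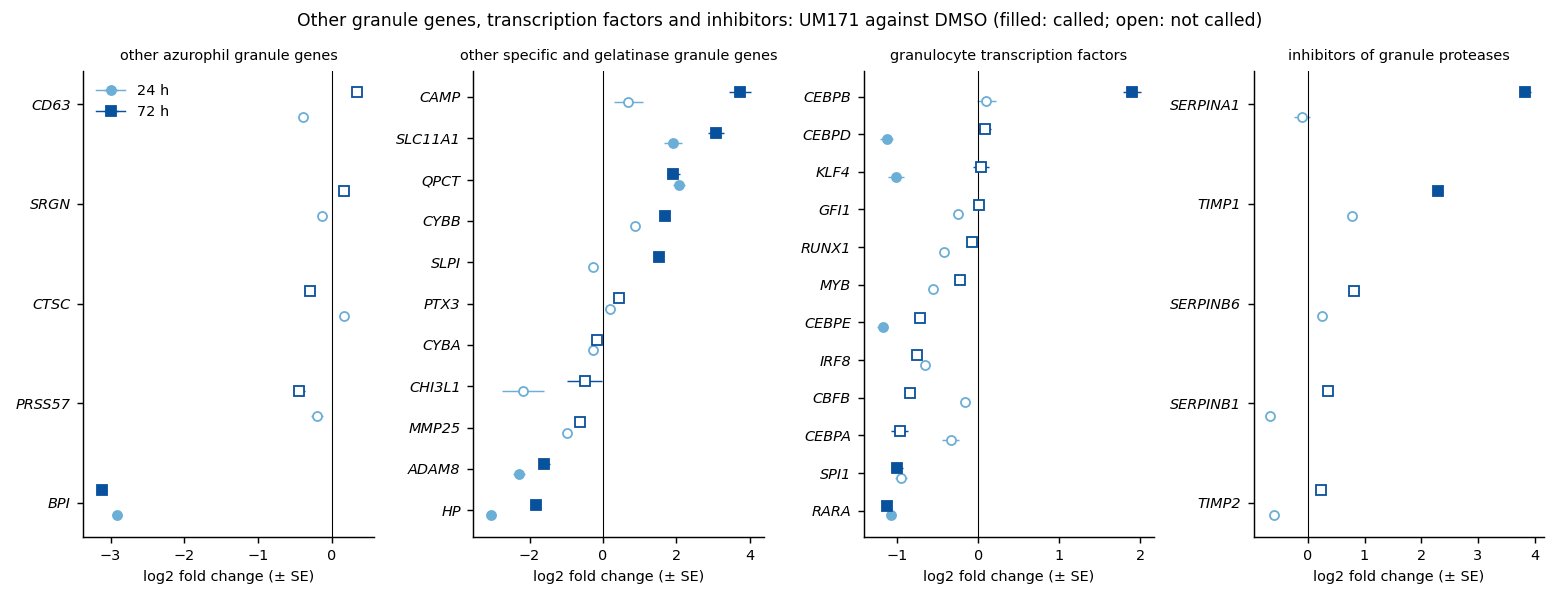
Log2 fold change against DMSO, with standard errors, at 24 h (circles) and 72 h (squares) for the tested genes of 4 lists, ordered by the 72 h value. Filled marks were called (adjusted p under 0.0001 and over 2-fold) and open marks were not. BPI lies near −3 at both times while CAMP, SLC11A1, SERPINA1 and TIMP1 are called higher at 72 h.

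The cobalamin list was read because TCN1 binds vitamin B12. Of its 14 genes 11 were tested, and at 72 h 1 was called higher and 0 lower. Over all tested genes 15% were called higher and 5.80% lower, so a single call in this list does not stand out. The gene called higher was MMAB, an enzyme that makes adenosylcobalamin, with a log2 difference of 1.02 (edgeR, adjusted p = 5.2e-11). Its call was kept in 19 of 24 alternatives. The median over the 11 was −0.05 against 0.02 over all tested genes. TCN2, the carrier that delivers B12 to cells, had a group mean of at most 0.05 TPM in any group, and CBLIF, the gastric intrinsic factor and the neighbour of TCN1, was listed at 0.

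Markers of other cell types were read beside these values. Of the 6 mature neutrophil markers, FCGR3B had at most 0.01 TPM and MME at most 0.18 TPM as group means, and the sum of the list, most of it CSF3R, was 117 to 122 TPM in DMSO and 155 to 161 TPM at 6 h. That sum was 69.7 to 73.6 TPM at 24 h and 71 to 75.6 TPM at 48 h, when TCN1 was already higher, and 158 to 169 TPM at 72 h. FPR1 rose by 2.55 at 72 h, from 0.74 to 3.99 TPM. The sum of the 6 monocyte markers was 186 to 197 TPM in DMSO and 402 to 429 TPM at 72 h (145 to 181 TPM at 24 h and 290 to 424 TPM at 48 h), where VCAN (2.24) and FCGR1A (1.04) were called higher while CD14 reached a mean of 0.277 TPM. The sum of the 7 eosinophil markers was 244 to 266 TPM in DMSO and 532 to 597 TPM at 72 h, with PRG2, the major basic protein, at 4.26, while EPX and CLC stayed under 0.08 TPM. In sgEPCR cells the neutrophil list summed to 34.1 to 73.5 TPM in DMSO and 29.6 to 65.5 TPM in UM171, the monocyte list to 73.3 to 125 and 217 to 359 TPM, and the eosinophil list to 164 to 202 and 122 to 129 TPM. Their part in the rises of TCN1, CTSG and LYZ and in the fall of CTSG was not tested.

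The 4 erythroid markers summed to at most 0.09 TPM in any library. Of the 4 lymphoid markers only CD79A was tested, and it was higher at 72 h by 1.09. Of the 4 markers of the leukemia line, CD33 had a mean of 178 TPM in DMSO and 156 TPM at 72 h and PTPRC 162 and 211 TPM, whereas CD34 fell by 2.29, from 4.71 to 1.08 TPM.

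Genes within 200000 bases of the members, chosen by position and named after their values were seen, were read beside them. LPO, which encodes lactoperoxidase, a secreted relative of MPO, lies 1337 bases from MPO. It had 3.09, 3.24 and 2.98 TPM in DMSO and 48.92, 51.77 and 46.65 TPM at 72 h, when MPO was at its lowest in control cells. LPO was called higher at 6 h (1.55), 24 h (1.60), 48 h (2.38) and 72 h (4.02), and each of these calls was kept in all 24 alternatives. At 72 h 6 of the 10 neighbours of MPO were tested, and 1 was called higher and 1 lower. The background at that time was 15% higher and 5.80% lower. EPX, the eosinophil peroxidase gene 64681 bases from MPO, had a group mean of at most 0.04 TPM.

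TSPOAP1, 20293 bases on the other side of MPO, followed the genotypes as MPO did. It had 28.32 and 28.22 TPM in sgEPCR DMSO replicates 2 and 3 and 6.68 TPM in the library of high mitochondrial share, against 4.93, 1.42 and 5.56 TPM in sgEPCR UM171. In control cells it had 8.60, 11.37 and 10.25 TPM in DMSO and 14.85, 16.89 and 17.46 TPM at 24 h. The difference of its responses was −3.74 and was called, in 19 of 22 alternatives as well. Of the 10 protein-coding genes within 200000 bases of MPO, 6 were tested for the difference of responses and TSPOAP1 was the only one called. The background for that difference was 3.60% higher and 4.17% lower.

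CTSG lies on chromosome 14 beside the granzyme genes. GZMB, 54704 bases away, had 0.10, 0 and 0.05 TPM in DMSO and 158.6, 172.4 and 169.1 TPM at 72 h, close to the level CTSG reached. GZMB had already risen to 140.5, 133.9 and 96.9 TPM at 48 h, when CTSG was still at 29.89 to 37.22 TPM. Around CTSG, 4 of 8 neighbours were tested at 72 h, and 2 were called higher and 0 lower. Around TCN1, 4 of 8 neighbours were tested at 72 h, and 1 was called higher and 0 lower. It was MS4A3, a surface protein of granulocyte progenitors 190098 bases away, at 1.58. Over all tested genes 15% were called higher and 5.80% lower at 72 h. An excess of calls around either gene was not tested.

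**Figure D5:**
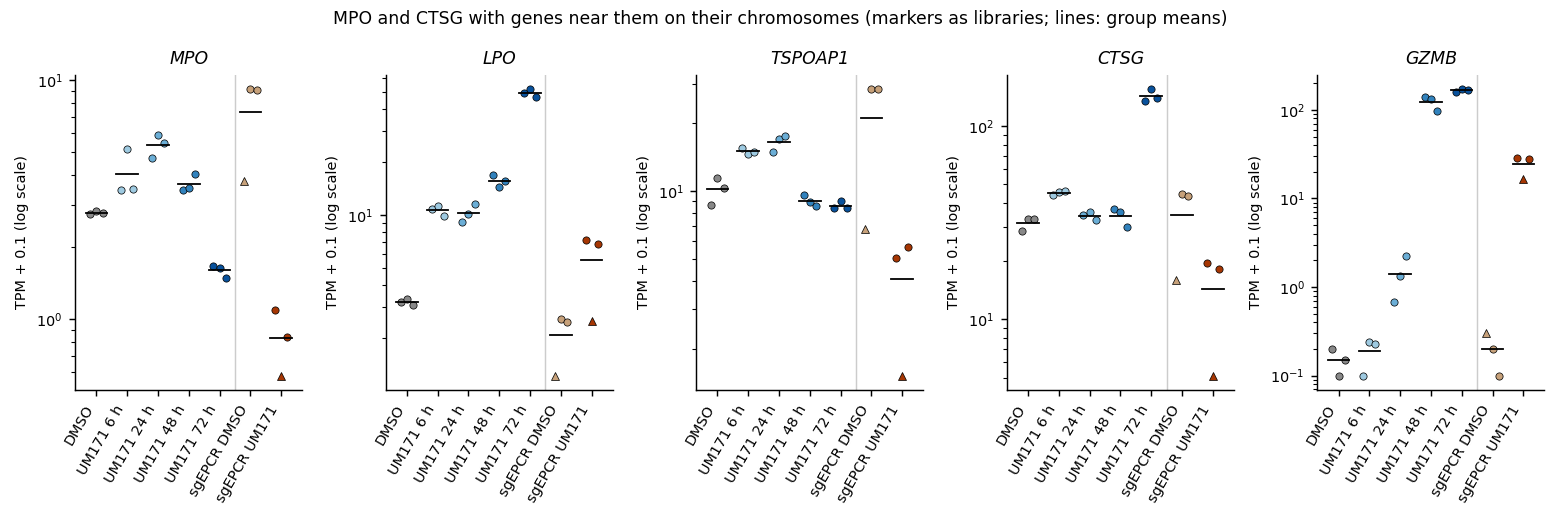
TPM + 0.1 on a log scale for MPO with its neighbours LPO and TSPOAP1, and for CTSG with GZMB, in the 21 libraries. Points are libraries, lines are group means and triangles are the 2 libraries with over 20% mitochondrial counts. LPO climbs from a mean of 3.1 to 49.1 TPM while MPO falls at 72 h, and TSPOAP1 drops in sgEPCR UM171 as MPO does. GZMB reaches over 90 TPM at 48 h, before the 72 h rise of CTSG.

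Across all 21 libraries the genes whose log2(TPM + 1) followed TCN1 most closely, among 13529 genes with a mean of at least 1 TPM, were GCSAML, MAFF and SPP1, with Pearson r of 0.982, 0.982 and 0.981. GCSAML went from a mean of 0.277 TPM in DMSO to 43.7 TPM at 72 h and 22.4 TPM in sgEPCR UM171, and SPP1, osteopontin, from 0.583 to 78.1 TPM and 17.3 TPM. For MPO they were a long noncoding RNA without a symbol (ENSG00000266709, r = 0.954), the chromatin organizer SATB1 (0.952) and the histone methyltransferase SUV39H2 (0.920). SATB1 had a mean of 52.2 TPM in DMSO, and in sgEPCR cells 78.7 TPM under DMSO against 34.2 TPM under UM171. These coefficients describe 21 libraries that fall into 7 groups and share the treatment, and they carry no p.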

How the data were processed

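Poly(A) RNA of the 21 libraries was prepared with a stranded kit. The authors deposited RSEM expected counts, TPM, posterior standard deviations of the counts and effective lengths per gene on GRCh38; the submitters' processing notes name CASAVA 1.8.2, Trimmomatic 0.35, STAR 2.5.1b and RSEM 1.2.28. The deposited expected counts are not normalized, and the deposited TPM are scaled by the authors to the same total in each library.

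Expected counts were rounded and fitted with edgeR 4.0.16 in R 4.3.3 (filterByExpr, TMM, quasi-likelihood test, Benjamini-Hochberg over all tested genes), with 15 libraries for the time course (16575 genes) and 12 for the sgEPCR comparisons (15901 genes). Calls needed an adjusted p under 0.0001 together with a difference of more than 2-fold. Standard errors (SE) were derived from each log2 fold change and its F statistic. P-values measure the spread between these libraries, which may be technical. The fits were tested on simulated data.

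The members, gene lists and tests were chosen with earlier results of these data known. Named genes are the members, the transcription factors, up to 3 called genes of each list in each direction at 72 h and up to 2 for the difference of responses, and the 3 genes most like TCN1 and MPO. LPO, TSPOAP1, GZMB, MS4A3, SLPI, CYBB and STX3 fall outside this rule and were chosen after their values were seen. The alternatives comprised limma 3.58.1 on log2(TPM + 1), DESeq2 1.42.0, other scalings and filters, other sets of libraries, a replicate block and other limits. Figures used Python 3.11.15 with matplotlib 3.10.9. Promoter sequences are RefSeq's, and 6 of the 10 members had one.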

Additional observations from a re-analysis of the deposited data

Results flagged for a closer look

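The 24 h response of MPO differed between sgEPCR and control cells by −4.38 on the log2 scale. Every 24 h UM171 library of control cells lay above DMSO, and every UM171 library of sgEPCR cells lay below its DMSO group. DMSO lasted 72 h in control and 24 h in sgEPCR cells, so genotype and hours in DMSO cannot be told apart here. MPO was chosen for this pattern, so the difference was not tested.

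The other named genes given here were called by edgeR's test for the difference of the responses (sgEPCR minus control). CD63 and PTX3 were named for this call alone, and TSPOAP1 and STX3 were chosen after their values were seen. CD79A, SERPINA1, TIMP1, FCGR1A and PRG2 were named for this call and for their call at 72 h. Passing was therefore set by the choice of names, and of all 15901 tested genes 3.60% were called higher and 4.17% lower. The difference was −3.74 for TSPOAP1 and −2.43 for CD79A. It passed in the other direction for CD63, a membrane protein of azurophil granules, at 1.23, for PTX3, a pentraxin of specific granules, at 2.20, and for STX3, a syntaxin gene near TCN1, at 1.08. The protease inhibitors SERPINA1 and TIMP1 were at 2.16 and 1.43, and the markers FCGR1A and PRG2 at 2.06 and 3.13. PTX3 had a mean of 3.20 TPM in sgEPCR cells under DMSO, where UM171 gave 19.6 TPM, against 4.93 and 5.74 TPM in control cells. The call of SERPINA1 was kept in 13 of 22 alternatives and that of TIMP1 in 10 of 22, while the other 7 were kept in 19 or 20 of 22. Limma ended the calls of all 9 genes and total count scaling those of all but PRG2. In this comparison limma called only 16 genes higher and 1 lower of 14060, so its losses say little about these genes. Total count scaling called 269 higher and 155 lower of 15901, against 573 and 663 in the main fit. The replicate block also ended all 9 calls, but it called 0 of 15901 genes in this comparison with edgeR (2396 higher and 2622 lower at an adjusted p under 0.05). The block therefore says nothing particular to these genes.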

How the results depend on the processing

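Depth limits 5 members, which held too few counts for a test. Of the member counts under all alternatives 332 of 384 stayed within 1.5 times, and 52 did not. With an adjusted p under 0.05 and no minimum fold, members called higher were 2 at 6 h, 1 at 24 h, 3 at 48 h, 1 for the sgEPCR response, 1 for the difference of responses and 1 between genotypes in DMSO, and members called lower were 1 at 72 h, 2 for the difference and 2 between genotypes in UM171. A call at this limit was common. Of all 16575 genes, 5273 were higher at 6 h, 5785 at 24 h and 6150 at 48 h, and 6097 were lower at 72 h. Of 15901 genes, 4291 were higher for the sgEPCR response, 3483 for the difference and 2774 between genotypes in DMSO. Those lower were 3675 for the difference and 3531 between genotypes in UM171. Requiring 10 counts in every library removed AZU1 and TCN1 and so left 0 lower at 24 h and 48 h and 0 higher between genotypes in UM171. It kept CTSG, which missed the limit in sgEPCR cells (−1.51, edgeR, adjusted p = 1.2e-04), leaving 0 lower there. Upper quartile scaling left 0 lower in sgEPCR cells, and total count scaling and limma left that 0 and 0 higher between genotypes in UM171. All 21 libraries in 1 fit gave 0 lower at 48 h, 1 lower for the difference and 1 lower between genotypes in UM171. DESeq2 gave 1 lower for the difference, 1 higher between genotypes in DMSO and 1 lower in UM171. Without both libraries of high mitochondrial share there were 1 higher and 1 lower for the difference and 2 higher between genotypes in UM171. Leaving out 1 library in turn gave 0 to 1 lower at 48 h, in sgEPCR cells and for the difference, and 0 to 1 higher between genotypes in UM171. CTSG between genotypes in DMSO turned to −0.01 with limma, and LYZ to −0.27 with limma and −0.06 with total count scaling. Except where fewer genes, libraries or another limit made the change, the cause was not tested.

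With the replicate number as a block there were 0 lower at 48 h, 0 lower in sgEPCR cells and 0 higher between genotypes in UM171. Between genotypes in UM171 the block called 0 of all 15901 tested genes, so that 0 says nothing about the members. For the sgEPCR response it called 102 genes higher and 12 lower, against 1112 and 530 in the main fit. At 48 h it called 1871 higher and 744 lower of 16575, against 1945 and 774 in the main fit. In the time course the numbers showed no pairing, since same-numbered libraries correlated at −0.0827 to 0.0778 in their deviations and 0 of 30 pairs passed 0.1. In the sgEPCR fit the range was −0.609 to 0.448 with 2 of 18 over 0.1. The 2 libraries of high mitochondrial share carry different numbers, and the sgEPCR pairs that hold them were at −0.609 and −0.604. The sgEPCR pair without them, replicate 3, was at 0.448, so these values cannot decide whether sgEPCR libraries were paired.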
